A study of Mus musculus with 10 samples.

Results

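Socs1, Socs2, Socs3 and Cish, which code for inhibitors of cytokine signalling, and the kinase genes Pim1, Pim2 and Pim3 were followed in CD4-positive spleen cells of the NOD and B10 mouse strains. These 7 genes were listed by symbol and taken from a table of 19938 genes. Each gene was read from a probe set that the platform annotation pairs with 1 symbol only, and where a gene had more than 1 such probe set, the one with the highest mean over all arrays was used. The cells came from the spleens of female mice aged 8 weeks and were selected with CD4 magnetic beads. The NOD samples carry the genotype label NODk, and those of the comparison strain B10 carry the label B10Br. In each strain 3 arrays held unstimulated cells (T0) and 2 arrays held cells treated for 4 hours with PMA at 10 ng/ml and ionomycin at 1 uM (T1). PMA activates protein kinase C and ionomycin lets calcium into the cell, so that together they bypass the T cell receptor. The protocol does not settle whether T0 cells were also cultured, and the labels call the samples biological replicates without naming the animals. P-values therefore measure only the spread between these samples, which may be technical in part. Stimulated replicate 1 of either strain is not analysed here.

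Cytokines that bind receptors without kinase activity of their own signal through JAK kinases, which phosphorylate STAT transcription factors. STATs switch on SOCS genes, and SOCS proteins then block the receptor or the JAK, or mark them for degradation through a ubiquitin ligase, which closes a negative feedback loop. PIM kinases are serine and threonine kinases that need no activating phosphorylation, so their activity is set mainly by how much of them is made. They are also induced by STATs and support survival and growth of T cells.

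Stimulation raised most of these genes and lowered none. Cish, Socs1, Pim1 and Pim3 rose in both strains, and Socs2 and Socs3 rose in NOD cells, while their B10 values lay just short of the threshold. Their second, dimmer probe sets gave other calls, that of Socs2 passing in both strains and that of Socs3 in neither. Pim2 passed in neither strain. In B10 cells 4 of the 7 genes rose (limma, adjusted p under 0.05), against 13.7% of all genes, and in NOD cells 6 of the 7 rose, against 16.1% of all genes. Counting falls as well as rises, 31.8% of all genes changed in B10, and in NOD the share was 35.5%. The median difference of the 7 genes (log2) was 0.96 in B10 cells and 1.14 in NOD cells, where the median over all genes was 0.03 and 0.08. The 7 genes were listed with earlier results of these data known, so these shares describe them and are not a test. No gene of the 7 passed between the strains at T0, at T1 or in the response.

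All 10 arrays had medians of log2 intensity between 6.18 and 6.23. Mean levels of 7 CD4 T cell markers were 10.66 to 10.86 over the T0 arrays of both strains and 9.77 to 10.12 over the T1 arrays, with 4 of the 7 markers falling in each strain and Cd5 rising in NOD cells. With stimulation, 9 of 10 monocyte and macrophage markers fell in each strain, from a mean of 7.53 to 8.01 to one of 6.47 to 6.67 in B10 and from 8.26 to 8.57 to 6.81 to 7.07 in NOD. Of 6 measured B cell markers 5 fell in each strain. Of 5 measured erythroid markers 0 passed with stimulation, but they were higher in NOD, at 9.87 to 10.49 over its 5 arrays, against 7.07 to 7.96 in B10 replicates 1 and 2 and 9.15 and 9.21 in B10 replicate 3. In bulk samples such as these, fewer cells of a type cannot be told apart from less RNA per cell. The part of these markers in the results below was not tested.

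**Figure D1:**
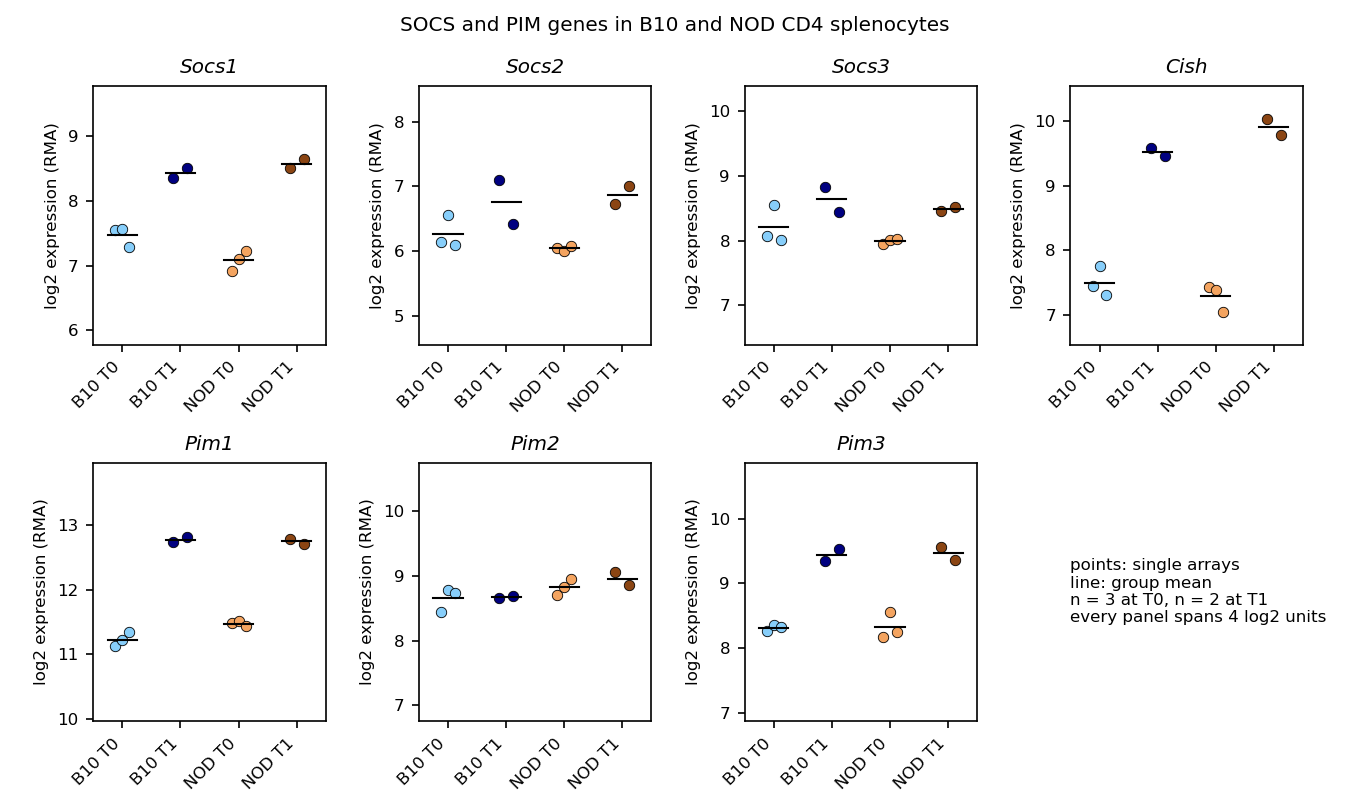
Log2 expression (RMA) of each of the 7 genes in every array, by strain and state; points are single arrays and lines are group means (n = 3 at T0, n = 2 at T1), with every panel spanning 4 log2 units. T1 points lie above all T0 points of the same strain for Socs1, Cish, Pim1 and Pim3 in both strains, while Pim2 stays between 8.45 and 9.06.

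Cish codes for an SH2 domain protein that binds activated cytokine receptors and also restrains T cell receptor signalling. Its level was 7.45, 7.75 and 7.31 in the B10 T0 arrays and 9.59 and 9.46 in the B10 T1 arrays. NOD T0 arrays stood at 7.43, 7.39 and 7.05 and NOD T1 arrays at 10.03 and 9.78. Stimulated arrays were all far above unstimulated ones, and both NOD T1 arrays were above both B10 T1 arrays. The rise was 2.02 ± 0.15 (SE) on the log2 scale in B10, or 4.06-fold (limma, adjusted p = 3.84e-07), and 2.62 ± 0.15 in NOD, or 6.15-fold (adjusted p = 4.95e-08). These were the largest responses among the 7 genes in both strains. The gene lies at chr9:107296659-107302784 (GRCm38.p6, RefSeq). The STAT recognition letters TTCNNNGAA, which read the same on both strands, were searched from 250 bases before to 50 bases after each gene's start, and Cish held 2 matches, at bases 1 to 9 and 12 to 20 counted from the start. The stretch is shown because it holds both matches in capitals, at the very start of the annotated gene, plus strand, chr9:107296654-107296683.
Cish: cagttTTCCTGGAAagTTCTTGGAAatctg
Of 32851 windows of the same length in the RefSeq promoter table, 8.30% held at least 1 match and 0.457% at least 2. A match is a run of letters and not a measured binding site.

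Socs1 codes for the SOCS protein that inhibits JAK kinases directly and is the main brake on interferon gamma signalling in T cells. B10 T0 arrays had levels of 7.54, 7.57 and 7.29, and B10 T1 arrays 8.35 and 8.51. NOD T0 arrays had 6.91, 7.11 and 7.23, and NOD T1 arrays 8.51 and 8.64. The 3 NOD T0 arrays were the lowest of all 10, and the T1 arrays of both strains lay together. Socs1 rose by 0.96 ± 0.12 in B10, or 1.95-fold (limma, adjusted p = 4.41e-05), and by 1.50 ± 0.12 in NOD, or 2.82-fold (adjusted p = 9.70e-07). The gene lies at chr16:10783808-10785536, on the minus strand. No STAT match was found in its window. The letters of interferon regulatory factor elements (GAAA, any 2 bases, then GAAA), searched on both strands after the STAT search, matched at 2 overlapping places, -83 to -74 and -77 to -68 counted from the start. At least 1 such match was present in 3.44% of all windows and at least 2 in 0.225%. The overlapping matches are in capitals in the stretch at chr16:10785580-10785639, minus strand.
Socs1: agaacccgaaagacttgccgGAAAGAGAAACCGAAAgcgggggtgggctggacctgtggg

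Socs2 codes for an inhibitor of growth hormone and STAT5 signalling. Its B10 T0 levels were 6.13, 6.55 and 6.10 and its B10 T1 levels 7.09 and 6.42, so the groups overlapped. NOD T0 arrays lay close together at 6.04, 6.01 and 6.08, clear of the NOD T1 arrays at 6.73 and 7.00. In NOD the rise was 0.82 ± 0.18, or 1.77-fold (limma, adjusted p = 0.00332). In B10 the difference was 0.50 ± 0.18, with a 95% interval of 0.10 to 0.90 (limma, adjusted p = 0.0576), and it did not pass. That B10 value rests on single arrays. It was 0.64 without T0 replicate 2 (adjusted p = 0.0181), 0.83 without T1 replicate 3 (adjusted p = 0.00368) and 0.16 without T1 replicate 2 (adjusted p = 0.61). The gene lies at chr10:95383903-95417321.

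Socs3 codes for the inhibitor that shuts off receptors of the IL-6 family by binding their shared chain gp130 and the JAK. It was measured at 8.08, 8.55 and 8.02 in B10 T0 arrays and at 8.84 and 8.45 in B10 T1 arrays, which overlapped. In NOD the T0 arrays, at 7.95, 8.01 and 8.02, all lay below the T1 arrays at 8.46 and 8.51. The NOD rise was 0.49 ± 0.16, or 1.41-fold (limma, adjusted p = 0.0261), the smallest that passed among the 7 genes. The B10 difference was 0.43 ± 0.16, with an interval of 0.09 to 0.76 (limma, adjusted p = 0.0548). The NOD call did not pass in every fit with 1 array left out, and the B10 value, which was not called, passed in some. The NOD call was lost without T0 replicate 1 (adjusted p = 0.0725), T0 replicate 3 (adjusted p = 0.0507), T1 replicate 2 (adjusted p = 0.0686) or T1 replicate 3 (adjusted p = 0.116), at values between 0.46 and 0.52. The B10 value became 0.59 without T0 replicate 2 (adjusted p = 0.00407), 0.62 without T1 replicate 3 (adjusted p = 0.0239) and 0.23 without T1 replicate 2 (adjusted p = 0.431). Socs3 lies at chr11:117966079-117970336 on the minus strand. Its window held 1 STAT match, at positions -154 to -146 from the start that the promoter table uses. The bases at chr11:117969501-117969530, minus strand, lie inside the annotated span of the gene, and the match is in capitals.
Socs3: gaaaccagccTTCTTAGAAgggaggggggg

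B10 replicate 2 had the highest value of its group for Socs2, Socs3 and Cish, at T0 and at T1. It was not set apart in the same way for Socs1, which was higher in B10 T1 replicate 3.

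Pim1, the first PIM kinase gene to be described, was found as an integration site of a leukaemia virus and works with Myc in lymphoid growth. B10 T0 arrays stood at 11.12, 11.22 and 11.35, and B10 T1 arrays at 12.74 and 12.81. NOD T0 arrays stood at 11.48, 11.51 and 11.44, above every B10 T0 array, and NOD T1 arrays at 12.78 and 12.71. Stimulated values of both strains overlapped, and all 4 were above all 6 unstimulated ones. The rise was 1.55 ± 0.10 in B10, or 2.92-fold (limma, adjusted p = 9.34e-08), and 1.27 ± 0.10 in NOD, or 2.41-fold (adjusted p = 4.79e-07). The gene lies at chr17:29490785-29496111, and neither of its 2 windows in the promoter table held a STAT, interferon regulatory factor or AP-1 match (AP-1 letters TGANTCA, present in 7.81% of all windows). The last 60 bases before its first start, at chr17:29490725-29490784 on the plus strand, are shown for contrast with the matched stretches and have no capitals because nothing matched.
Pim1: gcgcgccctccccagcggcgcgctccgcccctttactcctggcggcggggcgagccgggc
That window was 81.3% G and C with 42 CpG dinucleotides, against a median of 52.7% and 7 over all windows. The second Pim1 window had 49.0% and 5. Windows with matches had 73.3% and 31 (Socs3), 63.3% and 18 (Socs1) and 53.3% and 11 (Cish).

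Pim3, whose product shares substrates with Pim1, rose by nearly the same amount in both strains. Its levels were 8.27, 8.35 and 8.32 at T0 and 9.34 and 9.53 at T1 in B10. In NOD they were 8.17, 8.56 and 8.24 at T0 and 9.57 and 9.36 at T1. The states were far apart and the strains overlapped at each state. The rise was 1.12 ± 0.13 in B10, or 2.18-fold (limma, adjusted p = 1.29e-05), and 1.14 ± 0.13 in NOD, or 2.21-fold (adjusted p = 1.15e-05). The gene lies at chr15:88862194-88865726.

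Pim2, the X-linked member, which supports survival of lymphoid cells, did not pass in either strain. B10 arrays stood at 8.45, 8.78 and 8.74 at T0 and at 8.66 and 8.70 at T1. NOD arrays stood at 8.71, 8.83 and 8.95 at T0 and at 9.06 and 8.86 at T1. The states overlapped in both strains. The difference was 0.03 in B10, with an interval of -0.24 to 0.29 (limma, adjusted p = 0.913), and 0.13 in NOD, with an interval of -0.13 to 0.39 (adjusted p = 0.433). The gene lies at chrX:7878306-7883432. No searched motif matched in the windows of Pim2 or Pim3. Socs2 had no entry in the promoter table.

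**Figure D2:**
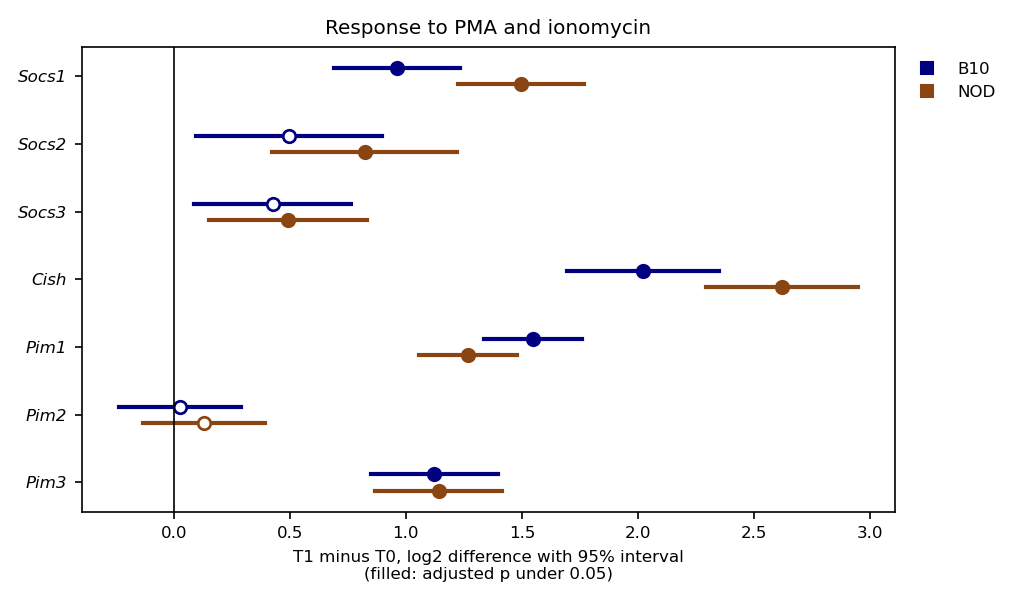
T1 minus T0 on the log2 scale for each gene in B10 and NOD, with 95% intervals from limma; filled points passed an adjusted p of 0.05. Cish has the largest difference in each strain (2.02 and 2.62), Pim3 has 1.12 and 1.14, and the intervals of Pim2 span 0.

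T1 arrays lay wholly above T0 arrays for 4 of the 7 genes in B10, the same 4 that passed, where 26.8% of all genes showed such a rise. In NOD this held for 6 of the 7, all but Pim2, against 31.0% of all genes. Of the 10 rises that passed, 9 passed in every alternative treatment of the data, and the exception was Socs3 in NOD.

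No difference between the strains passed for any of the 7 genes. At T0 the count was 0 of 7, where 5.79% of all genes passed. An unadjusted p under 0.05 (limma) was found for 2 of the 7 and for 3150 of all 19938 genes. Socs1 was 0.39 lower in NOD at T0, with an interval for NOD minus B10 of -0.63 to -0.15 (limma, adjusted p = 0.0666), and its NOD and B10 arrays did not overlap. The Socs1 value was -0.35 without B10 T0 replicate 1 (limma, adjusted p = 0.227) and -0.34 without replicate 2 (adjusted p = 0.248). Without B10 T0 replicate 3 it was -0.48 and passed (adjusted p = 0.0369). With both B10 replicate 3 arrays left out it was -0.48 as well (adjusted p = 0.0399), while without NOD T0 replicate 1 it was -0.30 (adjusted p = 0.264). Pim1 was 0.25 higher in NOD at T0, with an interval of 0.06 to 0.44 (limma, adjusted p = 0.148), again without overlap of the arrays. Socs2 was lower in every NOD T0 array than in every B10 T0 array, by 0.22 on average with an interval for NOD minus B10 of -0.58 to 0.14 (limma, adjusted p = 0.637). These 3 genes without overlap compare with 22.8% of all genes at T0. Cish and Socs3 each had a T0 value of -0.22 and overlapped (adjusted p = 0.533 and 0.527), Pim2 had 0.18 (adjusted p = 0.52), and Pim3 had 0.01 with an interval of -0.24 to 0.25. At T0, 6 of 10 monocyte and macrophage markers, 4 of 8 neutrophil markers and all 5 measured erythroid markers were also higher in NOD, while 2 of 5 NK cell markers and 1 of 2 CD8 T cell markers were lower. The NK cell marker mean was 5.84 to 6.04 in B10 and 5.44 to 5.52 in NOD at T0. The part of these markers in the values of Socs1 and Pim1 was not tested.

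At T1 the count was again 0 of 7, where 3.60% of all genes passed. An unadjusted p under 0.05 (limma) was found for 1 of the 7, Cish, and for 3264 of all 19938 genes. Cish was 0.38 higher in NOD, with an interval of 0.02 to 0.74 (limma, adjusted p = 0.268). Pim2 was 0.28 higher, with an interval of -0.01 to 0.57 (limma, adjusted p = 0.321). Arrays of the strains did not overlap for these genes, which was true of 41.8% of all genes with 2 arrays in each group. The T1 values of the other 5 genes lay between -0.16 for Socs3 and 0.15 for Socs1, and their arrays overlapped.

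Stimulation responses were also compared directly, as the NOD response minus the B10 response. Of the 7 genes 0 passed, where 0.246% of all genes did. Socs1 and Cish had an unadjusted p under 0.05 (limma), as did 1841 of all 19938 genes. The Cish response was 0.60 greater in NOD, with an interval of 0.14 to 1.06 (limma, adjusted p = 0.423). The Socs1 response was 0.53 greater, with an interval of 0.15 to 0.92 (limma, adjusted p = 0.361). Pim1 responded less in NOD, by a difference of -0.28 with an interval of -0.58 to 0.02 (limma, adjusted p = 0.57). Socs2 had a difference of 0.33 with an interval of -0.24 to 0.89, and Socs3 one of 0.07 with an interval of -0.41 to 0.55. The dimmer probe set of Socs2 had a difference of the other sign, -0.40. Pim2 and Pim3 differed by 0.10 and 0.02 between the strains, with intervals of -0.27 to 0.48 and -0.37 to 0.41. The T0 and T1 arrays entering these values are the same as in the comparisons above, so they are not separate evidence.

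**Figure D3:**
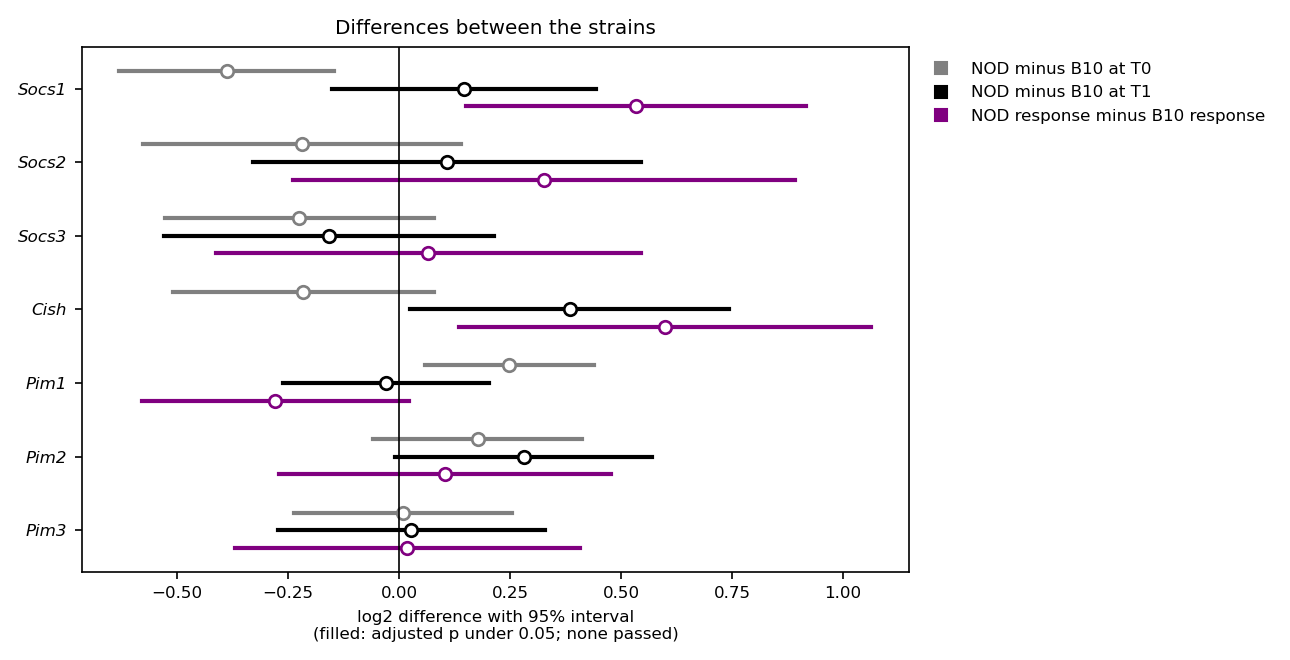
NOD minus B10 at T0, at T1 and in the response to stimulation, on the log2 scale with 95% intervals from limma, for each of the 7 genes; open points did not pass an adjusted p of 0.05, and none passed. Socs1 is lower in NOD at T0 (-0.39), and the responses of Socs1 and Cish are 0.53 and 0.60 greater in NOD.

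Ordered by group mean, Socs1 ran from 7.08 ± 0.16 (SD, n = 3) in NOD T0 through 7.47 ± 0.16 (n = 3) in B10 T0 and 8.43 ± 0.12 (n = 2) in B10 T1 to 8.58 ± 0.09 (n = 2) in NOD T1. Only the last neighbours in that order overlapped. Cish had the same order, from 7.29 in NOD T0 to 9.91 in NOD T1, and there only the T0 groups overlapped. The brighter Socs2 probe set also had this order, with means of 6.04, 6.26, 6.76 and 6.87. Its T1 groups overlapped each other and, in B10, the T0 group. With the dimmer probe set of Socs2 the T1 groups changed places, at -0.76 for NOD minus B10, and did not overlap. Socs3 ran from NOD T0 (7.99) through B10 T0 (8.22) and NOD T1 (8.48) to B10 T1 (8.64), and all neighbours overlapped. Pim1 began with B10 T0 (11.23) and NOD T0 (11.48), which were apart, followed by NOD T1 (12.75) and B10 T1 (12.78), which were not. Pim3 kept the T0 groups (8.31 and 8.32) and the T1 groups (9.43 and 9.46) together, with a gap between the states. Pim2 was the 1 gene ordered by strain, with B10 T0 (8.65) and B10 T1 (8.68) below NOD T0 (8.83) and NOD T1 (8.96), and neighbours of the same strain overlapped.

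Across the 10 arrays, which share the difference between T0 and T1, the genes varied together apart from Pim2. Pearson's r was 0.975 between Pim1 and Pim3, 0.972 between Cish and Pim3 and 0.958 between Socs1 and Cish. Socs2 and Socs3 had an r of 0.936. Pim2 had values of 0.07 with Socs3 to 0.32 with Pim1. These coefficients describe 10 arrays in 4 groups and carry no test.

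The array holds a second probe set with 1 symbol for Socs2 and for Socs3, and these gave different pictures. The dimmer Socs2 probe set read 6.05, 6.20 and 5.84 at T0 and 7.80 and 6.81 at T1 in B10, and 5.63, 5.73 and 5.64 at T0 and 6.30 and 6.79 at T1 in NOD. It separated T1 from T0 in both strains, with a rise of 1.28 ± 0.26 in B10 (limma over all probe sets, adjusted p = 0.00514) and 0.88 ± 0.26 in NOD (adjusted p = 0.0337). The brighter Socs2 probe set, in the same fit, had adjusted p-values of 0.112 and 0.0144. Between strains at T1 the probe sets differed in sign, at -0.76 for the dimmer (adjusted p = 0.229) and 0.11 for the brighter (adjusted p = 0.869), and neither passed. The NOD response minus the B10 response differed in sign too, at -0.40 (adjusted p = 0.797) and 0.33 (adjusted p = 0.789). The dimmer Socs3 probe set read 6.52, 6.65 and 6.36 at T0 and 6.84 and 6.65 at T1 in B10, and 6.70, 6.68 and 6.65 at T0 and 6.97 and 6.75 at T1 in NOD. It did not pass in B10, at 0.24 (limma over all probe sets, adjusted p = 0.188), or in NOD, at 0.18 (adjusted p = 0.286). At T0 it was 0.17 higher in NOD without overlap of the arrays (adjusted p = 0.572). The brighter Socs3 probe set had -0.22 there (adjusted p = 0.628). Whether the probe sets read different transcripts was not tested.

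**Figure D4:**
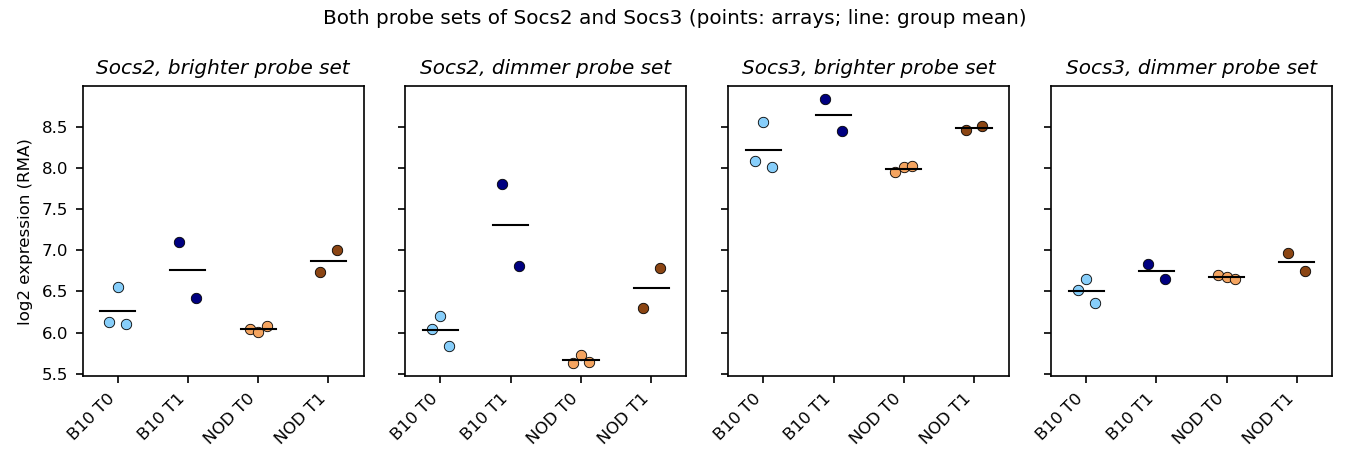
Log2 expression (RMA) of both probe sets of Socs2 and of Socs3 in each array, by strain and state, with points for arrays and lines for group means (n = 3 at T0, n = 2 at T1). The dimmer Socs2 probe set reaches 7.80 and 6.81 in stimulated B10 cells, above all B10 T0 arrays, while the dimmer Socs3 probe set stays between 6.36 and 6.97.

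The other SOCS genes and the pathway around the 7 genes were read from lists of symbols, and the shares over all genes given above (31.8% changed in B10, and 35.5% in NOD) are the background of each count. These lists too were chosen with earlier results of these data known, so the counts are description only.

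Among 4 other SOCS family genes, Socs6 rose by 1.52 in B10 (limma, adjusted p = 1.81e-07) and 1.10 in NOD (adjusted p = 2.88e-06), and Socs5 fell by 0.65 and 0.39 (adjusted p = 0.000476 and 0.0158). Socs4 and Socs7 passed in neither strain. Socs5 was also higher in NOD than in B10, by 0.41 at T0 (limma, adjusted p = 0.0294) and by 0.67 at T1 (adjusted p = 0.0107). Neither of these strain calls passed in every fit with 1 array left out. The T0 call of Socs5 was lost without B10 replicate 2 or 3 or without any 1 of the 3 NOD arrays (values 0.33 to 0.45), and its T1 call without replicate 3 of B10 (0.59) or of NOD (0.63). The fall of Socs5 in NOD was 0.35 without T1 replicate 2 (adjusted p = 0.0796), and scaling arrays to their 75th percentile gave -0.26 (adjusted p = 0.122). SOCS proteins work through a ligase built on elongins, a cullin and a RING protein. Of 7 genes for this machinery 3 rose and 1 fell in B10, and 2 rose and 1 fell in NOD, with medians of 0.17 and -0.02. Rbx1, a RING subunit, fell by 0.46 in B10 and 0.65 in NOD, and its B10 value was -0.31 without T1 replicate 3 (adjusted p = 0.132). The fall of Rbx1 in NOD passed with any 1 array left out, but other calls of this group did not. In B10 1 gene rose and 1 fell without T0 replicate 1 or without T1 replicate 2, and 0 passed without T1 replicate 3. In NOD no rise passed without B10 T0 replicate 1, NOD T0 replicate 2, NOD T0 replicate 3 or NOD T1 replicate 2. The B10 median was 0.10 without T1 replicate 2, and the NOD median, near 0, ran from -0.07 without T0 replicate 2 to 0.03 without T0 replicate 1.

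Genes upstream of the SOCS and PIM genes moved in several directions. Of 17 measured cytokine genes that signal through JAKs and STATs, 12 rose in B10 and 11 in NOD, and none fell, with medians of 3.50 and 1.80. The T cell growth factor Il2 rose by 6.10 in B10 (limma, adjusted p = 4.42e-11) and 5.16 in NOD, Il3 by 6.25 and 5.11, and Ifng by 4.22 and 4.21. Of 18 measured receptor chains 3 rose and 12 fell in B10, and 3 rose and 11 fell in NOD, with medians of -0.68 and -0.57. The risers were Il2ra, the inducible chain of the IL-2 receptor (3.14 in B10 and 3.29 in NOD), Il15ra (1.33 and 1.97) and Il4ra (0.34 and 0.39). The Il4ra call was lost in B10 without T0 replicate 1 (0.26), T0 replicate 2 (0.36) or T1 replicate 3 (0.24), and in NOD without T0 replicate 3 (0.34) or T1 replicate 2 (0.32). Il7r fell by 2.49 in B10 and 3.12 in NOD, and the interferon receptor chain Ifngr1 fell by 2.96 and 3.21. Of 9 measured JAK and STAT genes 2 rose and 6 fell in B10, and 2 rose and 5 fell in NOD, with medians of -0.44 and -0.40. Jak2 rose by 1.13 and 1.51 and Stat5a by 0.48 and 0.62, whereas Stat4 fell by 0.85 in B10, a value of -0.42 without T1 replicate 3 (adjusted p = 0.0799), and by 1.32 in NOD. Stat2 fell by 0.95 in B10, was 0.07 in NOD, and was 0.89 higher in NOD at T1 (limma, adjusted p = 0.0133). Without B10 T1 replicate 2 that last value was 0.86 (adjusted p = 0.0992), and without NOD T1 replicate 3 it was 0.68 (adjusted p = 0.107).

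Other brakes on the same pathway moved in both directions. Of 12 phosphatase, PIAS, adaptor and ligase genes 3 rose and 6 fell in B10, and 2 rose and 5 fell in NOD, with medians of -0.27 and -0.21. Sh2b3, an adaptor that restrains JAK2, rose by 0.94 in B10 (limma, adjusted p = 2.79e-05) and 1.01 in NOD, and the phosphatase gene Ptpn1 by 0.67 and 0.63. Ptpn6, which codes for the phosphatase SHP-1, fell by 1.54 in B10 and 1.19 in NOD. The ligase gene Cbl fell by 0.68 and 0.60.

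Downstream, 6 of 12 measured genes for PIM substrates and partners rose and 2 fell in B10, and 5 rose and 2 fell in NOD, with medians of 0.23 and 0.19. Myc, whose protein PIM kinases stabilise, rose by 3.17 in B10 (limma, adjusted p = 8.34e-10) and 2.67 in NOD. Eif4ebp1, a translation repressor that PIM kinases phosphorylate, rose by 0.87 and 1.29. The cell cycle inhibitor gene Cdkn1b fell by 2.14 and 1.69. In NOD 3 of these genes rose and 1 fell without T0 replicate 1, without T0 replicate 3 or without T1 replicate 3, and the median was 0.10 without T1 replicate 3. Of 10 STAT5 target genes 4 rose and 4 fell in each strain. Il2ra, the transcription repressor gene Gfi1 (2.54 and 2.85) and the survival gene Bcl2l1 (2.23 and 2.08) rose, while Ccnd3 (-1.10 and -1.04), Bcl2 (-0.78 and -0.91) and Bcl6 (-0.74 and -0.74) fell. The list had medians of 0.06 in B10 and 0.25 in NOD. Its B10 median turned to -0.14 without T1 replicate 2 and was 0.28 without T1 replicate 3, 0.11 without T0 replicate 2 and 0.02 without T0 replicate 3.

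Between the strains, 5 of 17 cytokine genes were lower in NOD at T1, where 3.60% of all genes passed in either direction. As log2 differences of NOD minus B10, Il4 had -2.89 (limma, adjusted p = 3.42e-05), Il13 had -1.76 (adjusted p = 0.000954) and Csf2, the gene of GM-CSF, had -1.52 (adjusted p = 0.000239), and each of these passed with any 1 array left out. Il5 had -2.12 (limma, adjusted p = 0.0092), a call lost without NOD T1 replicate 3 (adjusted p = 0.0635), and Il3 had -0.93 (adjusted p = 0.0179), lost without B10 T1 replicate 2 or NOD T1 replicate 3 (values -0.78 to -0.57). At T0, Il4 was lower in NOD as well, at -1.01 (limma, adjusted p = 0.00688). Il15 was also lower at T0 (-0.43) and Il2 higher (0.54). The Il15 call was lost without replicate 1 or 2 of B10 or replicate 2 or 3 of NOD (-0.44 to -0.36), and the Il2 call without B10 replicate 1 or 3 (0.48 to 0.55). Among receptor chains, Il9r was 0.52 higher in NOD at T0 (limma, adjusted p = 0.00821) and passed with any 1 array left out. Il2rb, the shared chain of the IL-2 and IL-15 receptors, was lower at T0 at -0.93 (limma, adjusted p = 0.0153), a call lost without B10 replicate 1 or 2 or NOD replicate 1 (-0.91 to -0.74). At T1 the interferon receptor chain Ifnar2 was 0.48 higher (limma, adjusted p = 0.0281), lost without B10 replicate 2 or NOD replicate 3 (0.41 to 0.43), and Il15ra was 0.48 higher (adjusted p = 0.0492), lost with any 1 of the 10 arrays left out (0.38 to 0.57). Of PIM partners and STAT5 targets, Myc was 0.41 higher in NOD at T0 (limma, adjusted p = 0.0173) and Bcl2l1 0.63 higher (adjusted p = 0.00842). The Myc call was lost without replicate 2 or 3 of B10 or replicate 1 or 3 of NOD (0.37 to 0.43), and the Bcl2l1 call without NOD replicate 3 (0.55). Foxo3 was 0.89 higher in NOD at T1 (limma, adjusted p = 0.0198), lost without B10 replicate 2 or either NOD array (0.55 to 0.89).

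**Figure D5:**
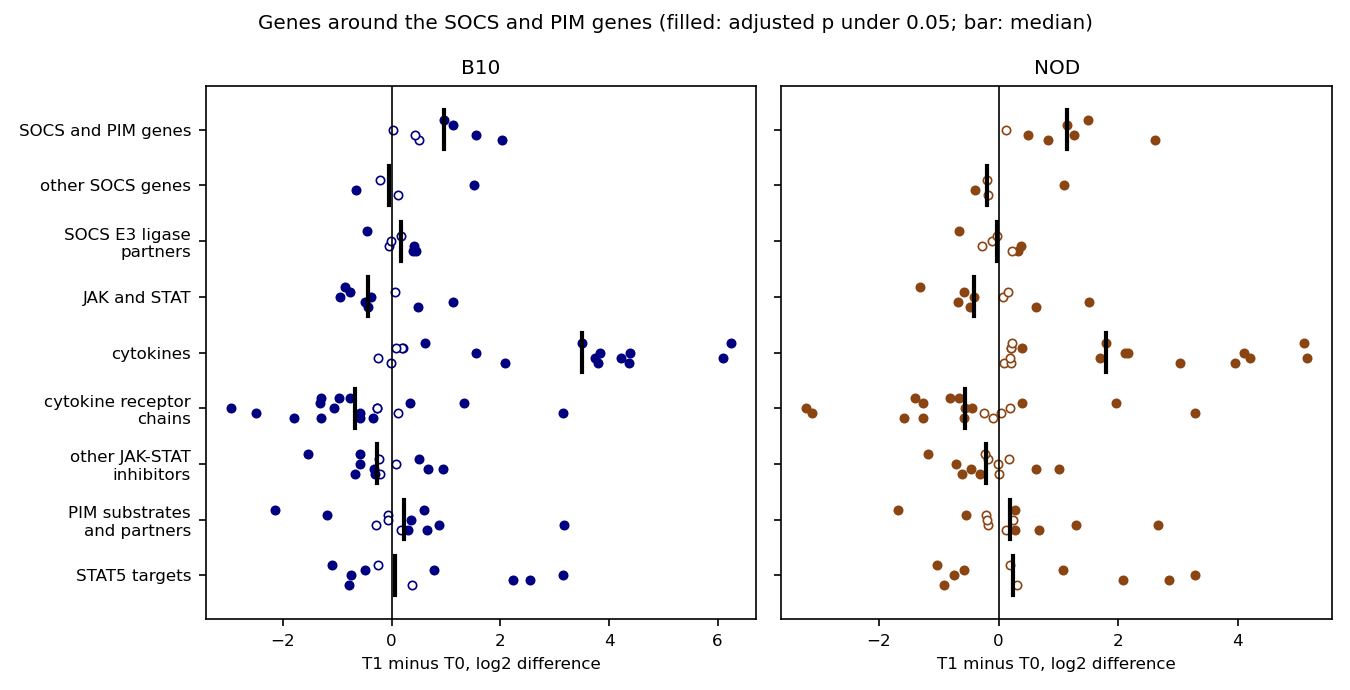
T1 minus T0 on the log2 scale for every measured gene of each list, in B10 and in NOD; filled points passed an adjusted p of 0.05 and bars are list medians. The SOCS and PIM genes (medians 0.96 and 1.14) and the cytokines (3.50 and 1.80) lie mostly to the right of 0, and the receptor chains (-0.68 and -0.57) mostly to the left.

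For each of the 7 genes the 3 genes with the most similar pattern over the 10 arrays were found among 5022 named genes with an SD of at least 0.3. Socs1 was closest to Fam71a (r = 0.988), Btla (r = 0.985), an inhibitory receptor, and Zap70 (r = 0.982), the kinase of the T cell receptor. Socs2 was closest to Pdcd1lg2 (r = 0.961), Vps54 and Tnfrsf4. Socs3 was closest to Plagl1 (r = 0.977), the repressor gene Nfil3 (r = 0.971) and Sema4c. Cish was closest to Aebp2 (r = 0.995), Nsfl1c and Imp4. Pim1 was closest to Gnl3 (r = 0.997), a nucleolar protein gene, to Ctps (r = 0.996), an enzyme of cytidine nucleotide synthesis, and to Lss. Pim3 was closest to Zbtb17 (r = 0.996), the gene of a partner of Myc, to Sh2b3 (r = 0.991) and to B3gnt2. Pim2 had no gene as close, the nearest being Lpin2 (r = 0.845), Fam220a and Ypel4. These similarities were picked as the highest of many over arrays that include both states.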

How the data were processed

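RNA of CD4-selected spleen cells was measured on 10 Affymetrix arrays. The deposited values are log2 intensities, which the authors made with RMA in Affymetrix Power Tools, per the submitters' processing notes. Their notes name no version, and base 2 was taken from the range of the values. The table holds 35486 probe sets, of which 21789 have 1 symbol, 1621 several and 12076 none. Genes outside the first class were left out, except in an alternative. No array background level was used, so folds of dim genes may be understated, and the number of arrays limits precision.

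With limma 3.58.1 in R 4.3.3, the 4 groups were fitted together over 10 arrays and 19938 genes (6 residual and 6.30 prior degrees of freedom). Tests were two-sided, with Benjamini-Hochberg adjustment across every gene of a comparison. A call needs an adjusted p under 0.05. The procedure was tested on simulated data. Figures were drawn with matplotlib 3.10.9.

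The 7 genes and all lists were chosen with earlier results of these data known. Named genes were the 7, up to 3 of the largest rises and falls of each list in each strain, genes of the lists that passed between strains, and the 3 most correlated genes. Socs4, Socs7, Cd5, and values of a named gene in its other strain were added for completeness. RefSeq (GRCm38.p6) gave gene positions and the promoters, which 6 of the 7 genes matched. The array table names no build.

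Alternatives were another scaling, probe set choice, gene filter, eBayes settings, array weights, fewer arrays, a replicate block and each array left out. Leaving out both B10 replicate 3 arrays and using the dimmer probe sets of Socs2 and Socs3 were added after seeing the data. Replicate numbers were not taken to pair T0 with T1, since the labels do not say that they mark a shared animal. Deviations from the group means of same-number arrays correlated at 0.41 and 0.40 in B10 and at -0.01 and 0.22 in NOD. Erythroid marker means at T0 and T1 were 7.07 and 7.42 in B10 replicate 2 and 9.15 and 9.21 in replicate 3. In NOD they were 9.87 and 10.02, then 10.43 and 10.49. A pairing by number therefore remains possible.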

Additional observations from a re-analysis of the deposited data

Results flagged for a closer look

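No SOCS or PIM gene responded differently in the strains by the test of the difference itself, but 3 of the 17 measured cytokine genes did, each rising less in NOD than in B10. Il4 rose by 2.08 in B10 and by 0.20, which did not pass, in NOD, a difference between responses of -1.88 (limma, adjusted p = 0.0216). Il13, another type 2 cytokine gene, had 3.50 and 1.80, a difference of -1.70 (limma, adjusted p = 0.0307). Csf2, the gene of the growth factor GM-CSF, had 4.37 and 3.03, a difference of -1.34 (limma, adjusted p = 0.0175). Of 20 alternatives Il4 passed in 11, Il13 in 9 and Csf2 in 14, and with single arrays left out the count of passing cytokine genes ran from 0 to 6. Groups of 2 or 3 arrays are too small to be checked for outlying arrays.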

How the results depend on the processing

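The number of the 7 genes that rose was 4 in B10 and 4 to 6 under the alternatives, and 6 in NOD and 5 to 6 under the alternatives. With each array left out in turn these ranges were 4 to 6 and 5 to 6. At T0 the 0 genes that passed between strains became 1 with genes above the median level (Socs1), 1 with trend and robust eBayes settings (Pim1), 2 with array weights (both), 1 with both B10 replicate 3 arrays left out (Socs1), and 0 to 1 with single arrays left out. The cause of these changes was not tested. At T1 and in the response 0 passed in every alternative, single arrays left out included. With a fixed block on replicate number, shared by both strains, the counts were 4 and 6 for stimulation and 0 for each strain comparison. A random block on replicate within a strain (correlation 0.08) gave 6 and 6 for stimulation. Of 35 values of the 7 genes, 5 changed a call in some alternative, 10 without a call turned sign, and 0 turned sign with a call. Scaling to the 75th percentile moved the median of all genes in NOD from 0.08 to 0.21, with 5393 rises and 3145 falls in place of 3201 and 3884, and in B10 from 0.03 to 0.10, with 3074 and 3141 in place of 2729 and 3613. Over all genes the T0 count of 1155 was 2316 with array weights and 571 to 1306 with single arrays left out. The T1 count of 718 was 292 with weights, 128 with only the compared arrays and 184 to 889 with arrays left out. The response count of 49 was 31 with weights and with the 75th percentile, 102 with trend and robust settings and 13 to 69 with arrays left out. With 2 or 3 arrays a group, differences near 0.4 lay at the edge of what passed with stimulation and between strains at T0. Larger ones were needed elsewhere. Cish at 0.38 at T1 (limma, adjusted p = 0.268) did not come close. Nor did Cish at 0.60 (adjusted p = 0.423) or Socs1 at 0.53 (adjusted p = 0.361) in the response.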
